A study of Mus musculus with 2 samples.

Results

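The Egfr family and its ligands were followed across the cell classes of tongue tumours: the receptors Egfr, Erbb2 and Erbb3 and the ligands Areg, Ereg, Hbegf, Tgfa, Btc, Epgn and Nrg1. These 10 genes were chosen by symbol from the 31053 genes that both libraries list. They were measured by single-cell RNA sequencing of tongue tissue with squamous cancer, from wild-type C57BL/6 mice that had all received the carcinogen 4NQO, which serves as a model of cancer of the human mouth and throat. One group of mice was then given JQ1, which blocks the bromodomains of BET proteins, for 10 days, and the other was given control for 10 days. Each group is 1 library. The sources used here do not say how many mice a library holds.

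Egfr, Erbb2 and Erbb3 are receptor tyrosine kinases of the cell surface that work in pairs. Egfr is bound by Areg, Ereg, Hbegf, Tgfa, Btc and Epgn, and Erbb3, which has little kinase activity of its own, is bound by Nrg1. Erbb2 has no known ligand and serves as the partner of the others. The ligands are made as membrane proteins and are set free by proteases such as Adam17, and the receptors signal through Ras and Mapk kinases and through Pi3 kinase. In stratified epithelium this system drives growth and wound repair, and EGFR is often raised in human head and neck cancer.

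A stretch of mouse chromosome 5 holds 4 of the ligand genes. In GRCm38, Epgn lies at chr5:91027464-91035215, Ereg at chr5:91074622-91093646 and Areg at chr5:91139599-91148432, all on the plus strand, and Btc lies at chr5:91357261-91402994 on the minus strand. The starts of Epgn and Areg are 112 kb apart. Tgfa is on chromosome 6, Nrg1 on 8, Erbb3 on 10, and Egfr and Erbb2 are both on 11. The bases in front of Areg and Epgn are shown because these neighbours gave different JQ1-to-control ratios in keratinocytes, the epithelial cells that line the tongue. Both are printed from RefSeq promoter windows of the GRCm38.p6 build, plus strand, up to the annotated gene start, with motif matches in capitals. Areg covers chr5:91139349-91139598 and Epgn covers chr5:91027267-91027463.
Areg: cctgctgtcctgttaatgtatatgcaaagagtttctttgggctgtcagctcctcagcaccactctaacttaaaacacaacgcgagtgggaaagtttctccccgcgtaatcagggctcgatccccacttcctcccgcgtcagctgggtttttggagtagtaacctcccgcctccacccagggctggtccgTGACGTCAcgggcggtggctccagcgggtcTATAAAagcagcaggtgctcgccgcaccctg
Epgn: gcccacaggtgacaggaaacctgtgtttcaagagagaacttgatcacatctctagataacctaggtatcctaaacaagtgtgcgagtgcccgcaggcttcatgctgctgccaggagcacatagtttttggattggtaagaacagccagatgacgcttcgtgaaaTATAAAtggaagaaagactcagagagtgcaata

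Motifs were searched on both strands of windows of 300 bases, for 6 of the 10 members. Of the others, Hbegf was left out of the search, and Erbb3, Ereg and Nrg1 had no entry. The TATA box was searched as TATAAA, the AP-1 site as TGANTCA, the cAMP response element as TGACGTCA and the E-box as CACGTG. The Areg window held TATAAA 31 bases before the RefSeq start and TGACGTCA, which reads the same on both strands, 61 bases before it, with no overlap. The Epgn window held TATAAA 33 bases before the annotated gene start at which the printed sequence ends, and 86 bases before the RefSeq start, which lies further downstream. Neither window held TGANTCA or CACGTG. The windows of the other members searched, Egfr, Erbb2, Tgfa and Btc, held none of these motifs. Over 32851 mouse windows, 13.6% held TATAAA, 7.81% TGANTCA, 1.79% TGACGTCA and 7.15% CACGTG. These matches describe letters and do not show binding.

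The JQ1 library held 16233 barcodes and 99565417 UMIs (unique molecular identifiers, which count captured RNA molecules), and the control library held 9754 barcodes and 118382532 UMIs. After filtering, 14044 JQ1 cells (median 3879 UMIs) and 8150 control cells (median 11302 UMIs) were kept, and 28 barcodes occurred in both kept sets. Each cell was given a class by its marker genes, and the class names are by resemblance to those markers. Gated keratinocytes made up 9.07% of kept JQ1 cells and 62.4% of kept control cells, so that values over a whole library follow this mix. RNA of other cells was present in every class: Krt14, a keratin of basal keratinocytes, reached 1.09% of its keratinocyte level in JQ1 fibroblasts and 2.65% in control fibroblasts. Because each group is 1 library and cells do not replicate a condition, no test was made. Levels are in CPM, the UMIs of a gene relative to all UMIs of the same class in the same library. Their exact 95% intervals, like those of ratios and shares, reflect counting error and nothing of the spread between mice. Intervals of levels and ratios also take UMIs as independent, and so leave out the clumping of UMIs in single cells. A gene counted as measured if the libraries together held 20 or more of its UMIs and its mean level reached 5 CPM, and as higher or lower at a CPM ratio, JQ1 over control, of 1.5-fold or more. Beside each count of members stands the share of all measured genes past the same fold.

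Which cells the members came from differed between the libraries for most members, with Epgn an exception. Keratinocytes held 92.5% of the Epgn UMIs of the JQ1 library and 96.0% of those of the control library. For Nrg1 they held 69.2% in JQ1 and 94.98% in control, for Areg 63.0% and 92.1%, and for Tgfa 47.5% and 93.5%. For the receptors keratinocytes held 28.6% of Egfr UMIs in JQ1 against 86.0% in control, 36.8% of Erbb2 against 93.4%, and 20.3% of Erbb3 against 89.2%. In the JQ1 library fibroblasts were the main holder of Ereg (55.6%, against 7.29% in control) and of Egfr (43.7%, against 7.86%). T cells held 23.0% of Areg UMIs in JQ1 and 4.03% in control. Endothelial cells held 20.9% of Hbegf and 26.6% of Tgfa in JQ1, against 3.05% and 2.17% in control. Schwann cells held 33.2% of Btc and 24.5% of Erbb3 in JQ1, against 3.32% and 0.636% in control.

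**Figure D1:**
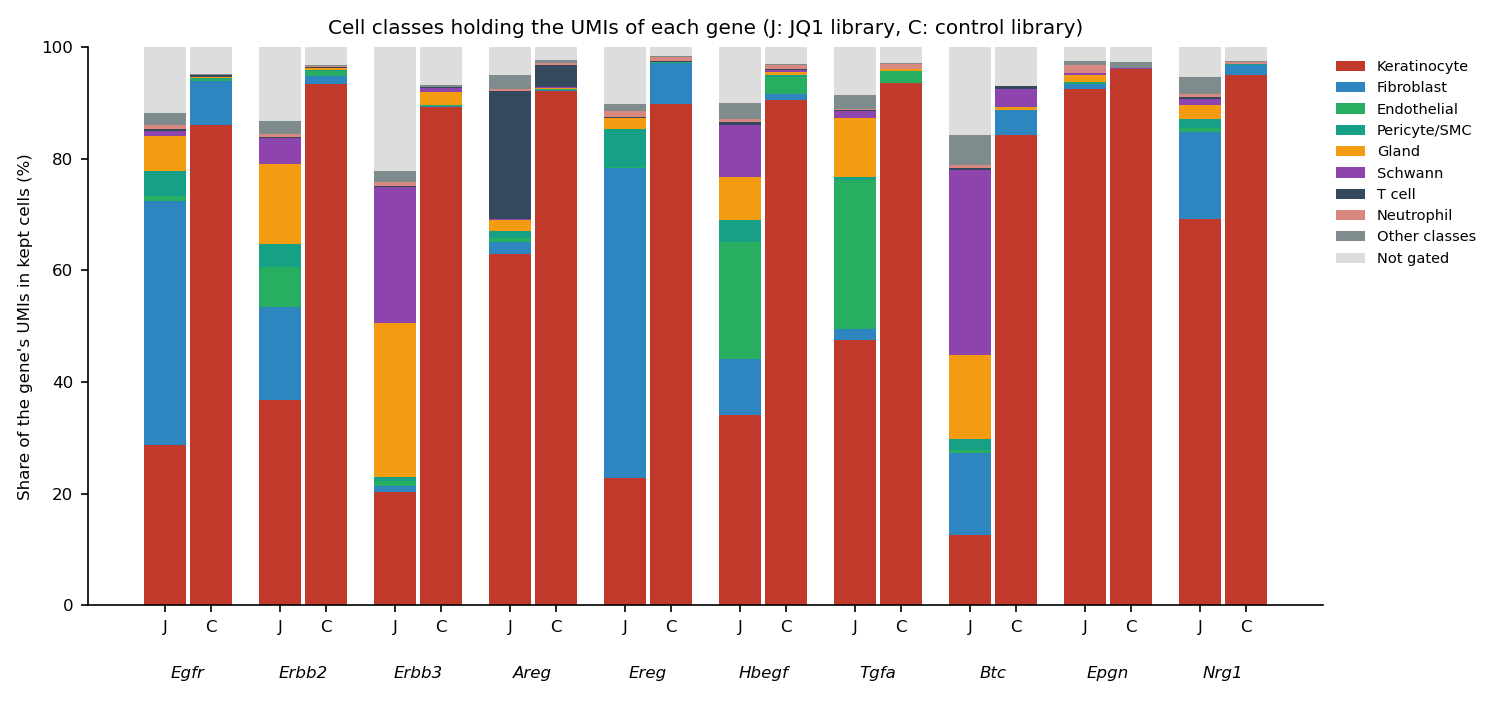
Stacked bars give the share of each gene's UMIs in kept cells (vertical axis, percent) by cell class, with the JQ1 library (J) left of the control library (C) for each gene. Keratinocytes hold over 84% of every control bar, while in the JQ1 bars they hold between 12.6% (Btc) and 92.5% (Epgn).

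Over all kept cells, 5 of the 9 measured members were lower in the JQ1 library (Erbb2, Areg, Tgfa, Epgn and Nrg1) and 0 were higher, against 13.7% of all measured genes lower and 32.9% higher. Areg was at 50.3 CPM in JQ1 and 177 CPM in control, and Epgn at 12.1 and 27.03 CPM. The share of keratinocytes was also lower in JQ1, and its part in these values was not tested. Within keratinocytes, 2 of the 9 measured members (Epgn and Nrg1) were higher in JQ1 and 0 were lower, against 11.7% of measured genes higher and 4.49% lower. Epgn and Nrg1 thus lay on opposite sides of the control in the whole library and in its keratinocytes.

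Receptors in keratinocytes were at low levels in both libraries, between 23.1 and 33.6 CPM. Egfr, the receptor of most of these ligands, was at 33.6 CPM (31.1 to 36.4) in JQ1 and 23.1 CPM (22.2 to 24.1) in control, a ratio of 1.45 (1.33 to 1.59) that is just under the 1.5-fold limit. Its intervals did not overlap, and among alternatives it passed the limit with cells classed by clusters (log2 ratio 0.62). Erbb2, the partner without a ligand, was at 28.7 CPM in JQ1 and 27.6 CPM in control (ratio 1.04, 0.945 to 1.14). Erbb3, the Nrg1 receptor, was at 28.8 and 24.3 CPM (ratio 1.19, 1.08 to 1.30). The median log2 ratio of all measured genes in keratinocytes was 0.15, and scaling by size factors, which removes this shift, gave log2 ratios of 0.39 for Egfr, -0.10 for Erbb2 and 0.09 for Erbb3. The Erbb2 ratio thus changed sign with the scaling. Erbb4, the remaining receptor of the family, had 1 UMI in 1274 JQ1 keratinocytes and 0 in 5089 control keratinocytes, which allows a share of up to 0.0590% of control cells with a UMI.

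Nrg1 and Epgn were the members with the largest ratios in keratinocytes. Nrg1, the ligand of Erbb3, was at 99.1 CPM (94.7 to 104) in JQ1 and 56.6 CPM (55.1 to 58.1) in control, a ratio of 1.75 (1.66 to 1.85). Epgn, an Egfr ligand made mainly by epithelia, was at 54.6 CPM (51.3 to 58.1) in JQ1 and 29.96 CPM (28.9 to 31.1) in control, a ratio of 1.82 (1.70 to 1.96). Both stayed past 1.5-fold when the cell with the most UMIs was left out of each library and with size factors. They also did so with the same weight for each keratinocyte subtype that had at least 50 cells in both libraries. When every cell weighed the same, Nrg1 was at a ratio of 1.499, just under the limit, and Epgn stayed above it (log2 ratio 0.72). Of the 1021 JQ1 and 4655 control keratinocytes with enough UMIs to be thinned to 5000, 29.0% (26.2 to 31.9) had an Nrg1 UMI in JQ1 and 20.4% (19.3 to 21.6) in control. For Epgn these shares were 11.5% (9.57 to 13.6) in JQ1 and 7.45% (6.72 to 8.25) in control. Unthinned, 41.9% of JQ1 and 42.1% of control keratinocytes had an Nrg1 UMI, at median depths of 12221 and 17535 UMIs. Endothelial cells, which hold little of either RNA, gave the background: after thinning to 1000 UMIs, 0.105% of JQ1 endothelial cells had an Nrg1 UMI, against 0 of 474 control endothelial cells, which allows a share of up to 0.633%. At that depth 7.39% of JQ1 and 5.51% of control keratinocytes had one.

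The remaining Egfr ligands in keratinocytes were within 1.5-fold in summed UMIs, and with equal weight per cell Ereg was past it, at a ratio of 0.648. Hbegf, a heparin-binding ligand of wound edges, was at 304 CPM (296 to 312) in JQ1 and 237 CPM (234 to 240) in control (ratio 1.28, 1.25 to 1.32). Areg, a growth factor of epithelia and of tissue-repair lymphocytes, was at 155 CPM (149 to 161) in JQ1 and 188 CPM (185 to 191) in control, a ratio of 0.824 (0.792 to 0.857). Ereg was at 57.1 and 60.7 CPM (ratio 0.941, 0.881 to 1.004), Tgfa at 30.5 and 27.2 CPM (ratio 1.12, 1.02 to 1.23), and Btc, below the measured level, at 2.57 and 2.06 CPM. Areg was unequal among cells: 412 of 1274 JQ1 keratinocytes and 2401 of 5089 control keratinocytes had a UMI, and single cells held up to 84 and 246. After thinning to 5000 UMIs, 24.3% (21.7 to 27.04) of JQ1 and 30.8% (29.5 to 32.2) of control keratinocytes had an Areg UMI, and 9.40% (7.68 to 11.4) and 13.7% (12.8 to 14.8) had an Ereg UMI. The median log2 ratio over the 9 members was 0.25, against 0.15 over all 9576 measured genes. The chromosome 5 neighbours Epgn and Areg thus had ratios on either side of 1.

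**Figure D2:**
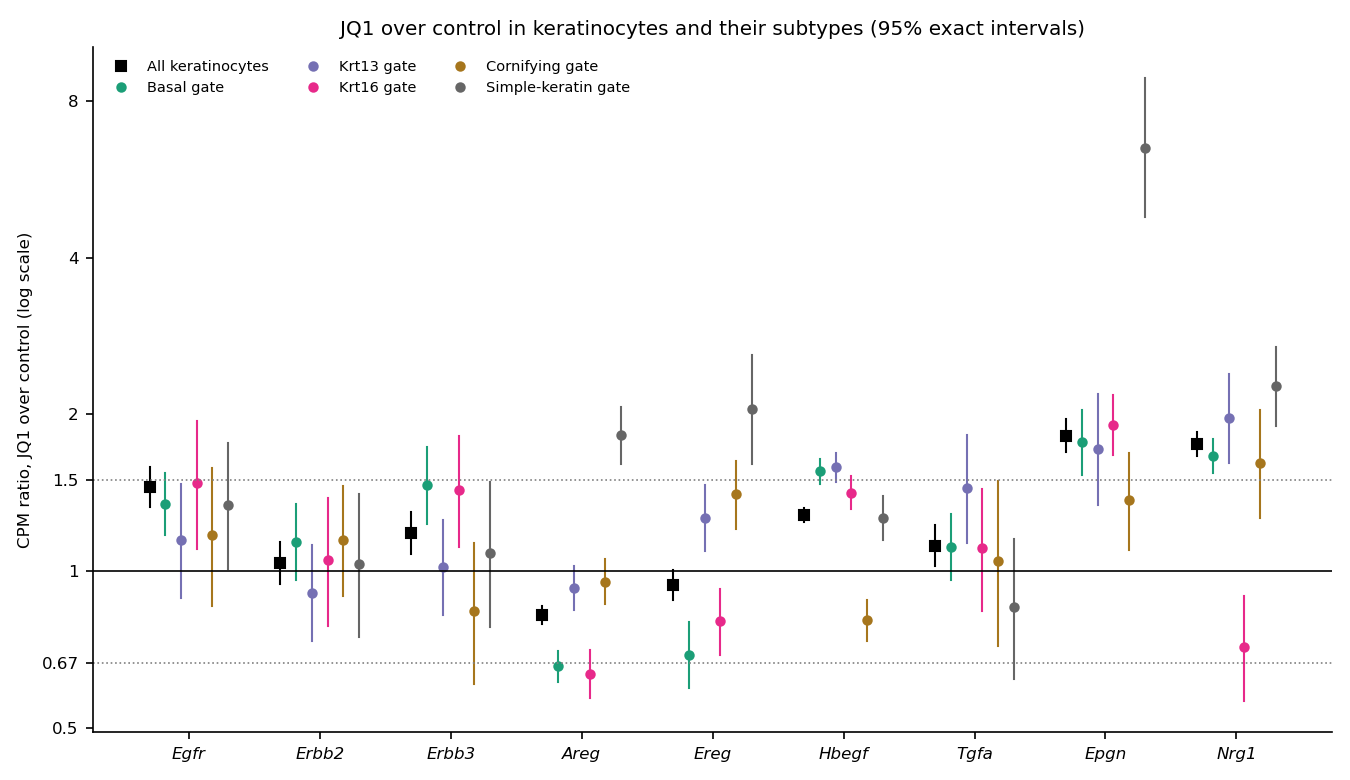
Each point is the CPM ratio of JQ1 over control (vertical log axis) of a measured member in all keratinocytes (black squares) or in a subtype gate (circles), with its exact 95% interval, and dotted lines mark 1.5-fold either way. Nrg1 lies above 1 in all keratinocytes and in every gate except the Krt16 gate, and Areg lies below 1 except in the simple-keratin gate.

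Keratinocytes were split by the marker list each cell scored highest on, and between 29.8% and 79.4% of the cells of a gate lay close to another gate. The gates are ranges of a score more than separate types. Cells of 5 gates could be compared. These were a basal gate (597 JQ1 and 1420 control cells), a Krt13 gate of suprabasal cells (224 and 444) and a Krt16 gate of stress keratins (105 and 868). The others were a cornifying gate (140 and 662) and a simple-keratin gate (176 and 422). Of the 8 markers of the simple-keratin list, 2 (Krt19 and Cyp2f2) were among the 10 leading genes of that gate, which began with Psca. The gates for Stmn2 and Krt42 held 21 and 11 JQ1 cells against 599 and 674 control cells, so they have levels and no comparison. No marker of the Krt16 list was among the 10 leading genes of that gate, which were small proline-rich and defensin genes.

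Levels within keratinocytes followed the gates. Nrg1 was highest in the basal gate among the gates compared, at 146 CPM in JQ1 and 87.5 CPM in control, and low in the Krt16 and cornifying gates in JQ1 (38.95 and 41.1 CPM) and in the cornifying and Krt13 gates in control (25.4 and 26.2 CPM), pairs that did not differ beyond counting error. The Krt42 gate, not compared, held 21.1% of the Nrg1 UMIs of control keratinocytes in 13.2% of the cells. For the basal gate these shares were 32.9% and 27.9%. Egfr was also highest in the basal gate among the gates compared, at 39.8 CPM in JQ1 and 29.5 CPM in control, with intervals that overlap those of the simple-keratin gate (38.4 and 28.6 CPM). Among the gates compared, Epgn was highest in the Krt16 gate, at 134 CPM (119 to 151) in JQ1 and 70.1 CPM (66.4 to 74.0) in control. The Stmn2 gate was at 257 CPM in JQ1, where 1 of its 21 cells held 58 of 67 UMIs, and at 4.48 CPM in control. Areg in control was also highest in the Krt16 gate at 281 CPM, followed by the Krt42 gate at 237 CPM and the cornifying gate at 222 CPM, and was lowest in the Stmn2 gate at 61.9 CPM. In JQ1 the 21 cells of the Stmn2 gate, 1.65% of keratinocytes, held 3.24% of their Areg UMIs (94 of 2898). They held 2.80% of the Nrg1 UMIs (52 of 1854). Ereg peaked in JQ1 in the cornifying gate (100.4 CPM) and the Krt16 gate (98.1 CPM), which did not differ beyond counting error, and in control in the Krt16 gate (122 CPM). Hbegf in JQ1 was at 422 CPM in the Krt13 gate and 410.2 CPM in the Krt16 gate, with overlapping intervals, and at 233 CPM in the basal gate.

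In the basal gate, 3 of 9 measured members were higher in JQ1 (11.3% of all measured genes were) and 1 was lower (4.6% were). Basal cells sit on the basement membrane and renew the epithelium. Nrg1 was 1.67-fold higher (1.55 to 1.79), Epgn 1.77-fold (1.53 to 2.04) and Hbegf 1.56-fold (1.47 to 1.65) in JQ1. Areg was at 120.1 CPM in JQ1 and 183 CPM in control, 1.52-fold lower (1.42 to 1.63). Of these, 3 sit close to the limit. With the stricter gate, which left out cells between gates, the ratio of Areg was 0.702, of Hbegf 1.14 and of Nrg1 1.45. With size factors Hbegf was at 1.41, and with every cell weighed the same Hbegf was at 1.36 and Nrg1 at 1.49. Areg was at 0.719 with the stricter cell filter and at 0.729 with clusters. After thinning to 5000 UMIs, 37.6% of basal cells in JQ1 and 28.6% in control had an Nrg1 UMI, 48.5% and 38.6% an Hbegf UMI, and 21.2% and 26.0% an Areg UMI.

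In the Krt13 gate, 3 of 9 were higher (15.5% of measured genes) and 0 lower (4.45%). Nrg1 was at 51.5 CPM in JQ1 and 26.2 CPM in control (1.97-fold, 1.62 to 2.39), Epgn at 31.1 and 18.1 CPM (1.72-fold, 1.34 to 2.19) and Hbegf at 422 and 266 CPM (1.59-fold, 1.49 to 1.69). A single JQ1 cell held 172 Hbegf UMIs, and without the highest cell of each library the Hbegf ratio was 1.48. It was 1.44 with size factors and 1.10 with equal weight per cell. In the Krt16 gate, 1 was higher (14.6%) and 1 lower (9.88%). Epgn was 1.91-fold higher (1.68 to 2.18), and Areg was at 178 CPM in JQ1 and 281 CPM in control, 1.57-fold lower (1.42 to 1.75), though at a ratio of 0.825 with equal weight per cell and 0.691 with no cell filter. Nrg1 in this gate was at 38.95 CPM in JQ1 and 54.4 CPM in control, a ratio of 0.716 (0.564 to 0.898) that is within the limit. Whether the Nrg1 ratio differs between this gate and the others was not tested.

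In the cornifying gate of outer, terminally differentiating cells, 1 of 9 was higher (15.6%) and 0 lower (4.08%). That member was Nrg1, at 41.1 CPM in JQ1 and 25.4 CPM in control (1.62-fold, 1.27 to 2.04), and at 1.43 with size factors. In the simple-keratin gate, 4 of 9 were higher (18.9%) and 0 lower (10.9%): Epgn 6.48-fold (4.79 to 8.84), Nrg1 2.27-fold (1.90 to 2.70), Ereg 2.05-fold (1.61 to 2.60) and Areg 1.82-fold (1.61 to 2.07). Few cells carry these values: 36 of 176 JQ1 cells had an Areg UMI and 14 an Ereg UMI, and 1 cell held 51 of the 109 Ereg UMIs. Without the highest cell the Ereg ratio was 1.22, and with equal weight per cell it was 0.958 for Ereg and 1.10 for Areg. The share of cells with an Areg UMI after thinning to 5000 UMIs was 16.3% (10.2 to 24.0) in JQ1 and 22.6% (18.4 to 27.2) in control, the other way from the CPM. In the duct-like cluster that these markers named, Areg was lower in JQ1, at a ratio of 0.374, and Nrg1 was at 3.42. The gate's leading genes include gland genes (Ltf, Lipf, Dmbt1), and the gland mucin Muc5b was at 2921 CPM in JQ1 and 106 CPM in control in these cells. The part of that difference in the result was not tested.

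Outside keratinocytes, several members had classes with levels near or above those of keratinocytes in both libraries. Among classes with at least 50 cells in both libraries, Egfr was highest in fibroblasts, at 52.9 CPM (49.6 to 56.4) in JQ1 and 66.2 CPM (57.5 to 75.8) in control, above its keratinocyte level in each library. Ereg too was higher in fibroblasts than in keratinocytes, at 144 CPM (138 to 150) in JQ1 and 154 CPM (141 to 168) in control, and it was held by 254 of 3729 JQ1 and 64 of 736 control fibroblasts. Hbegf in endothelial cells, which line vessels, was at 346 CPM (335 to 358) in JQ1 and 325 CPM (302 to 348) in control, above its keratinocyte level in both. Tgfa was at like levels in endothelial cells (31.7 CPM in JQ1, 25.6 CPM in control) and keratinocytes (30.5 and 27.2 CPM), with overlapping intervals. It was at 7.30 and 6.06 CPM in gland cells. In neutrophils it was at 1.10 CPM in JQ1 and 26.4 CPM in control, on 2 and 25 UMIs. Erbb3 was at 41.7 CPM in JQ1 and 46.9 CPM in control in gland cells, and at 1.60 and 2.55 CPM in fibroblasts. Egf itself, the founding ligand, was highest in gland cells among the classes with 50 cells in both libraries, at 26.7 CPM in JQ1 and 18.2 CPM in control, against 2.09 and 0.590 CPM in keratinocytes.

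Schwann cells, which ensheath nerves and depend on neuregulin signals for their growth, had the highest Erbb3, Hbegf and Btc of the classes with at least 50 JQ1 cells. In 851 JQ1 Schwann cells Erbb3 was at 318 CPM (294 to 343), Hbegf at 763 CPM (726 to 802) and Btc at 62.1 CPM (51.8 to 73.9). The 30 control Schwann cells were too few to compare and had Erbb3 at 186 CPM (109 to 298), Hbegf at 1162 CPM (952 to 1406) and Btc at 87.7 CPM (37.9 to 173). Erbb3 was held by 395 of the 851 JQ1 cells with at most 7 UMIs in any of them. After thinning to 1000 UMIs, 28.5% of JQ1 Schwann cells had an Erbb3 UMI, against 0.0545% of JQ1 fibroblasts. Schwann cells themselves had little Nrg1 in JQ1 (15.2 CPM, with 17 of 31 UMIs in 1 cell).

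**Figure D3:**
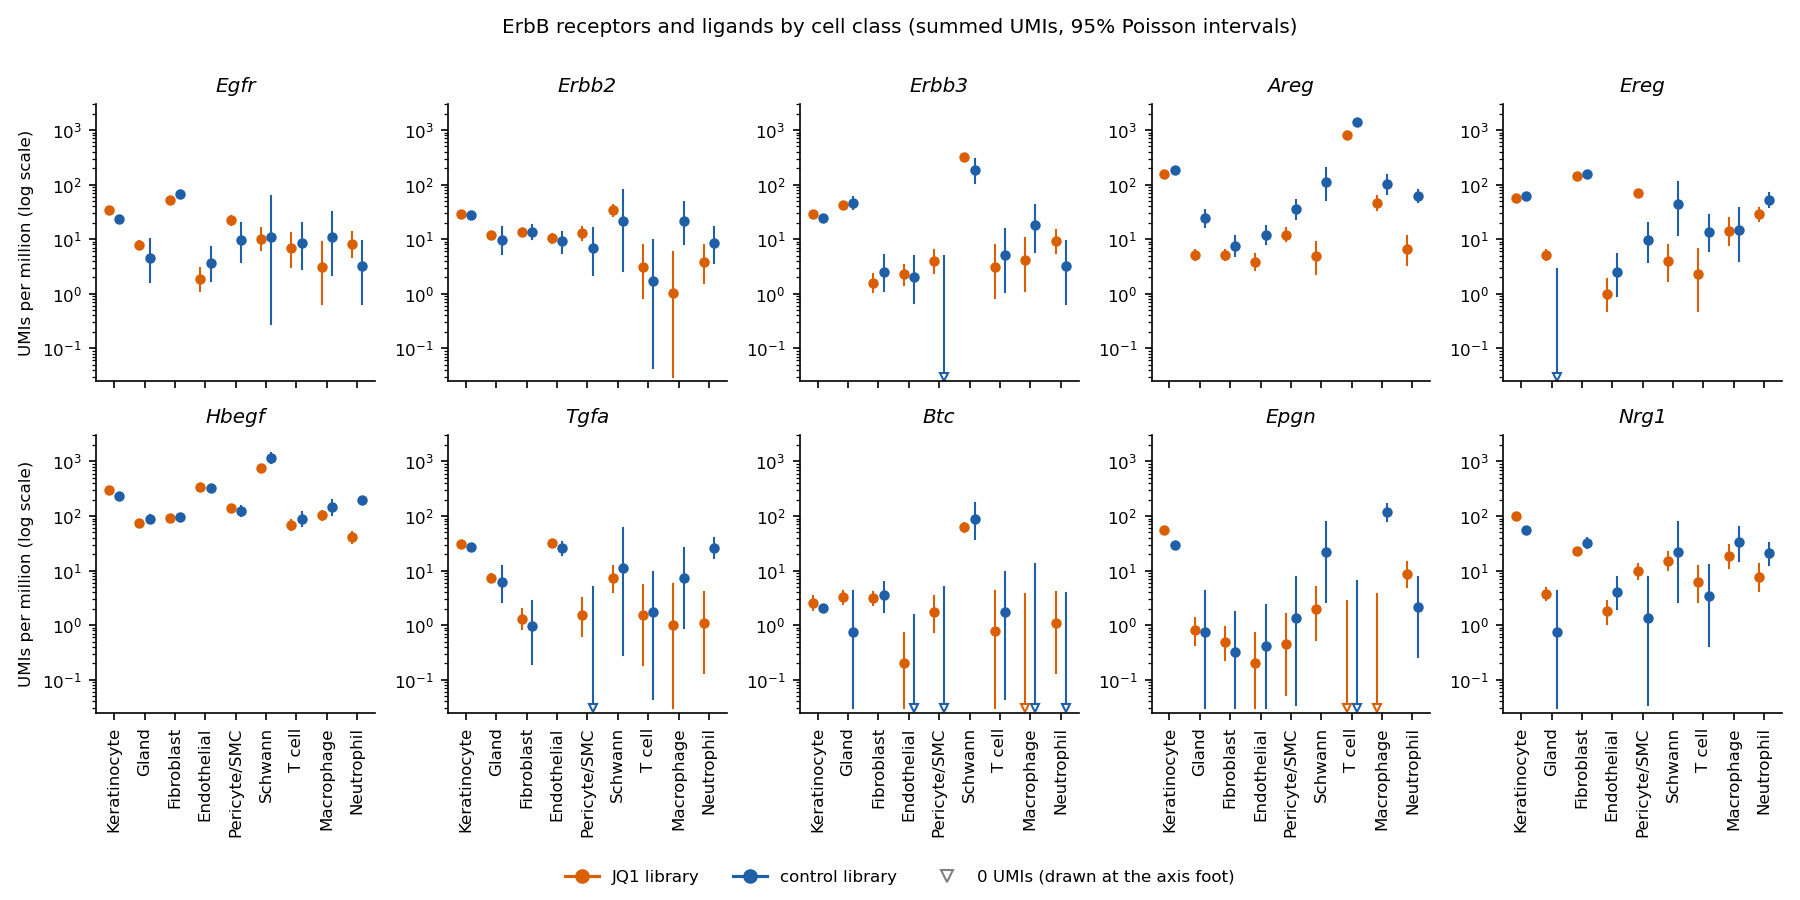
Points give the level of each member (CPM of the class, log axis) by cell class, with JQ1 left of control and exact 95% Poisson intervals, and open triangles at the foot stand for 0 UMIs. Areg peaks in T cells, Egfr and Ereg in fibroblasts, and Erbb3, Hbegf and Btc in Schwann cells, in both libraries, and Schwann cells and macrophages have under 50 control cells.

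Fibroblasts and endothelial cells gave few differences between the libraries. In fibroblasts 0 of 6 measured members were higher (7.38% of all measured genes were) and 0 were lower (3.4% were). Nrg1 was at 23.2 CPM (21.0 to 25.5) in JQ1 fibroblasts and 31.8 CPM (25.9 to 38.7) in control fibroblasts, a ratio of 0.729 (0.585 to 0.916), so that the keratinocyte and fibroblast ratios of Nrg1 lay on either side of 1. In endothelial cells 0 of 4 were higher (10%) and 1 was lower (3.92%). That was Areg, at 3.87 CPM in JQ1 and 11.98 CPM in control, where the keratinocyte RNA Krt14 was at 126 and 845 CPM, and with clusters the Areg ratio was 0.968. At the endothelial Krt14 share, keratinocyte RNA would bring 2.08 CPM of Areg in JQ1 and 14.6 CPM in control, so that the control level lies below the level so computed.

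T cells held the highest Areg level of all classes in both libraries. Areg was at 809 CPM (761 to 860) in 351 JQ1 T cells and 1393 CPM (1299 to 1493) in 187 control T cells, 1.72-fold lower (1.57 to 1.89) in JQ1. Of the 2 measured members 0 were higher (17.9% of measured genes) and 1 was lower (10.2%). The other was Hbegf at 69.6 and 89.6 CPM. Krt14 was at 594 CPM in JQ1 and 725 CPM in control T cells, at which share keratinocyte RNA would bring 9.81 and 12.6 CPM of Areg. Across alternatives the log2 ratio of Areg in T cells ran between -0.86 and -0.64, all past the limit.

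The Areg of T cells sat mostly in cells with a UMI of Il17a, a cytokine of type 17 cells, or Trdc, the constant part of the gamma-delta receptor's delta chain. Those 95 JQ1 cells held 970 of the class's 1059 Areg UMIs and were at 2588 CPM (2428 to 2756), and the 62 control cells held 751 of 809 and were at 3218 CPM (2992 to 3457). Cells with Foxp3, which marks regulatory T cells, were at 183 CPM (132 to 247) in 56 JQ1 cells and 385 CPM (249 to 568) in 23 control cells. Cells with neither were at 67.1 CPM (49.3 to 89.3) in 199 JQ1 cells and 96.1 CPM (63.4 to 139.9) in 101 control cells, and 1 cell in each library had both kinds of UMI. In all 3 groups JQ1 lay below control, and the intervals overlapped only for the cells with neither. For the cells with Il17a or Trdc and for those with neither, the JQ1 and control levels lay within 1.5-fold of each other. An Areg UMI was in 42 of the 95 JQ1 and 30 of the 62 control cells with Il17a or Trdc. Such cells were 95 of 351 JQ1 and 62 of 187 control T cells. The part of this mix in the ratio of the whole class was not tested. The split was chosen after the data were seen. It rests on genes often missed in shallow cells, and median depths were 2715 UMIs in JQ1 and 2351 UMIs in control T cells.

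**Figure D4:**
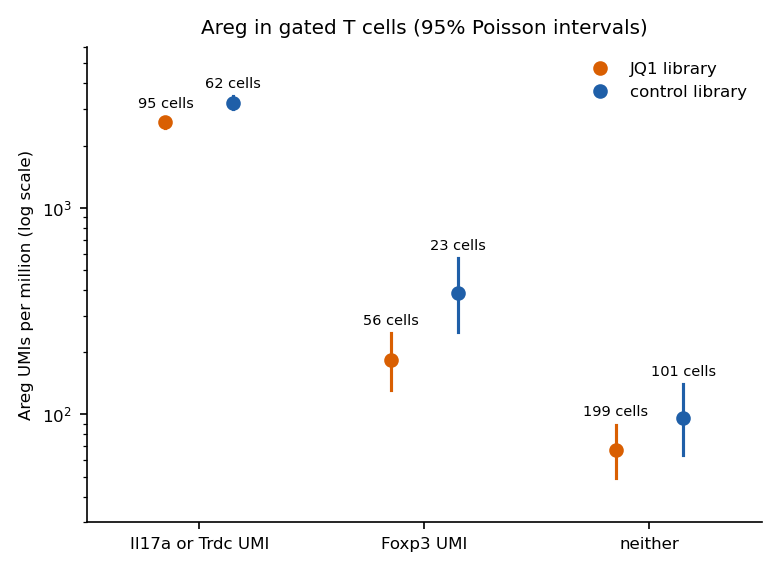
Areg level in CPM (log axis) in T cells split by a UMI of Il17a or Trdc, of Foxp3, or of neither, with JQ1 left of control, exact 95% Poisson intervals and the number of cells above each point. Cells with Il17a or Trdc are highest in both libraries, at 2588 CPM in JQ1 and 3218 CPM in control.

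Pericytes and smooth muscle cells, which wrap vessels, had 4 of 6 measured members higher in JQ1 (19.7% of all measured genes) and 1 lower (7.48%). Ereg was at 70.5 CPM (62.9 to 78.6) in JQ1 and 9.47 CPM (3.81 to 19.5) in control, 7.44-fold higher (3.57 to 18.6). Those UMIs lay in 40 of 836 JQ1 cells and 5 of 155 control cells, with up to 69 in 1 cell. The ratio was 1.79 with the stricter gate, 2.91 with clusters and 4.78 with equal weight per cell. Egfr was 2.33-fold higher (1.09 to 5.95), Erbb2 1.89-fold (0.766 to 6.05) and Nrg1 7.18-fold (1.22 to 290.0) on 7, 5 and 1 control UMIs, and without the highest cells Erbb2 was at 4.42 and Nrg1 at 1.85. With equal weight per cell Nrg1 was at 23.6. The fibroblast collagen Col1a1 was at 709 CPM in JQ1 and 670 CPM in control pericytes. Areg was at 12.1 CPM in JQ1 and 35.2 CPM in control, where Krt14 was at 235 and 813 CPM. The Areg ratio of 0.345 became 0.527 without the highest cells and 0.227 with equal weight per cell, and the part of free RNA in it was not tested.

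Gland cells had 1 of 6 higher (42.2% of all measured genes) and 1 lower (4.68%), on only 55 control cells. Egfr was at 7.75 CPM in JQ1 and 4.54 CPM in control on 6 control UMIs (ratio 1.71, 0.764 to 4.73). It was 1.24 with size factors, 3.67 with equal weight per cell and 0.646 with clusters. Areg was at 5.07 CPM in JQ1 and 24.2 CPM in control, but 27 of its 32 control UMIs were in 1 cell, and without the highest cells its ratio was 1.13. With equal weight per cell it was 0.523.

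Neutrophils, short-lived phagocytes, had 1 of 6 measured members higher (26.5%) and 5 lower (14.4%), all on few UMIs. Hbegf was at 41.4 CPM in JQ1 and 193 CPM in control, but 1 control cell held 143 of 183 UMIs, and without the highest cells the ratio was 0.705. It was 1.28 with clusters, 3.51 with the stricter gate and 0.623 with equal weight per cell. Areg was at 6.62 and 62.3 CPM, from 2 of 633 JQ1 cells and 7 of 472 control cells, and its ratio went to 0.0174 without the highest cells and 0.258 with equal weight per cell. Ereg was at 28.7 and 52.8 CPM (ratio 0.544, 0.362 to 0.819), with 0.132 with clusters, 0.314 with the stricter gate and 0.225 with equal weight per cell. Tgfa rested on 2 and 25 UMIs, with a ratio of 0.341 with equal weight per cell against 0.0418. Nrg1 rested on 14 and 20 UMIs (ratio 0.366) and turned to 1.15 with equal weight per cell and 1.17 with clusters. Erbb3 was higher on 17 and 3 UMIs (ratio 2.96), and at 1.92 with doublets kept. Krt14 was at 298 CPM in JQ1 neutrophils and 1583 CPM in control neutrophils, 3.17% and 14.6% of the keratinocyte level, and its part in these ratios was not tested.

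Cells that passed no gate (2412 in JQ1 and 830 in control) had 1 of 9 members higher (25.3%) and 4 lower (12.3%): Ereg was higher, and Areg, Tgfa, Epgn and Nrg1 were lower. Krt14 in them was at 5.35% of the keratinocyte level in JQ1 and 41.3% in control, and its part in these ratios was not tested. Macrophages had 168 JQ1 and 47 control cells, and their 32 control UMIs of Epgn were all in 1 cell, against 0 UMIs in JQ1.

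The wider pathway in keratinocytes was read from lists of genes chosen with earlier results of these data known. Of feedback inhibitors, which damp the receptors or Ras, 4 of 14 measured genes were higher in JQ1 and 0 lower, against 11.7% and 4.49% of all measured genes. They were Lrig3, a membrane protein related to the receptor inhibitor Lrig1, at 48.9 CPM in JQ1 and 25.3 CPM in control (1.93-fold, 1.79 to 2.09), Spry1, an inhibitor of Ras signalling, at 40.2 and 22.3 CPM (1.80-fold, 1.65 to 1.96), Socs3, an inhibitor of cytokine signalling, at 139 and 83.8 CPM (1.66-fold, 1.59 to 1.73), and Errfi1, which binds and blocks the Egfr kinase, at 83.4 and 54.1 CPM (1.54-fold, 1.46 to 1.63). The list's median log2 ratio was 0.29, against 0.15 over all measured genes. These ratios varied by gate: Lrig3 was 1.57-fold higher in the basal gate and at 0.509 in the Krt16 gate, and Errfi1 was at 1.32 and 1.01 there. In the cornifying gate 8 of 13 measured inhibitors were higher and 0 lower (median log2 ratio 0.71), against 15.6% and 4.08% of all measured genes there. In the Krt16 gate 1 of 13 was higher and 3 were lower, against 14.6% and 9.88%.

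Of 14 measured targets of Mapk signalling, 3 were higher in JQ1 and 0 lower, against 11.7% and 4.49% of all measured genes. The list's median log2 ratio was 0.08, below the 0.15 of all measured genes. Some targets lay just within the limit on the lower side, with intervals below 1. They were Ier3 (ratio 0.668, 0.655 to 0.682), Dusp4 (0.672, 0.564 to 0.797), Emp1 (0.679, 0.656 to 0.702) and Ccnd1 (0.710, 0.690 to 0.730). Plaur lay near the limit on the upper side (1.41, 1.31 to 1.51). In the basal gate Ier3 was past the limit, at a ratio of 0.648, while Dusp4 was at 0.925, Emp1 at 1.11 and Ccnd1 at 1.17. In the Krt13 gate Ier3 was at 0.788, Dusp4 at 0.720, Emp1 at 0.974 and Ccnd1 at 1.07. Of the control UMIs of Ccnd1, 22704 of 41096 lay in the Stmn2 and Krt42 gates, which held 21 and 11 JQ1 cells. For Emp1 it was 14195 of 28998, for Dusp4 472 of 1181 and for Ier3 23587 of 82739. The part of that mix in the ratios over all keratinocytes was not tested. Etv1, an ETS factor, was at 8.13 CPM in JQ1 and 2.07 CPM in control (3.92-fold, 3.15 to 4.86), and 67 of its 152 JQ1 UMIs came from the simple-keratin gate. Egr1, an early response factor that also answers to cell handling, was at 782 and 449 CPM (1.74-fold, 1.71 to 1.77), and Dusp5, a phosphatase of Erk, at 41.1 and 26.3 CPM (1.56-fold, 1.44 to 1.70). Dusp6, the usual readout of Erk activity, was at 126 CPM in JQ1 and 128 CPM in control (ratio 0.981, 0.939 to 1.03), but it was 1.54-fold higher in the Krt13 gate and at 0.580 in the Krt16 gate.

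Of 20 signal transducers, 1 was higher and 0 lower, against the same 11.7% and 4.49% of all measured genes. It was Pik3r1, the regulatory subunit of Pi3 kinase, at 37.6 CPM in JQ1 and 20.9 CPM in control (1.80-fold, 1.65 to 1.96), and above 1.5-fold in every compared gate except the Krt16 gate (1.21). Of 8 measured genes of ligand release, 1 was higher and 1 lower, beside the same shares. Adam9, a membrane protease, was at 18.9 and 12.4 CPM (1.53-fold, 1.35 to 1.72). Adam12, a protease that can shed Hbegf, was at 0.909 CPM in JQ1 and 10.1 CPM in control on 17 and 992 UMIs, 11.1-fold lower (6.90 to 19.1) in JQ1. In the basal gate Adam12 was at 0.956 and 13.6 CPM and in the simple-keratin gate at 0.534 and 12.3 CPM, so the difference was present within these 2 gates. In the Krt13, Krt16 and cornifying gates it was below the measured level. Of its 992 control UMIs, 568 lay in the Stmn2 and Krt42 gates, at 30.5 and 6.46 CPM, and these gates held only 21 and 11 JQ1 cells with 1 Adam12 UMI in all. The part of that mix in the ratio of 11.1 was not tested. Adam17, the main sheddase of Areg, Ereg, Tgfa and Hbegf, was at 30.3 CPM in JQ1 and 24.1 CPM in control (ratio 1.26, 1.14 to 1.38). None of the 5 other receptors and ligands of the family was measured in keratinocytes.

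**Figure D5:**
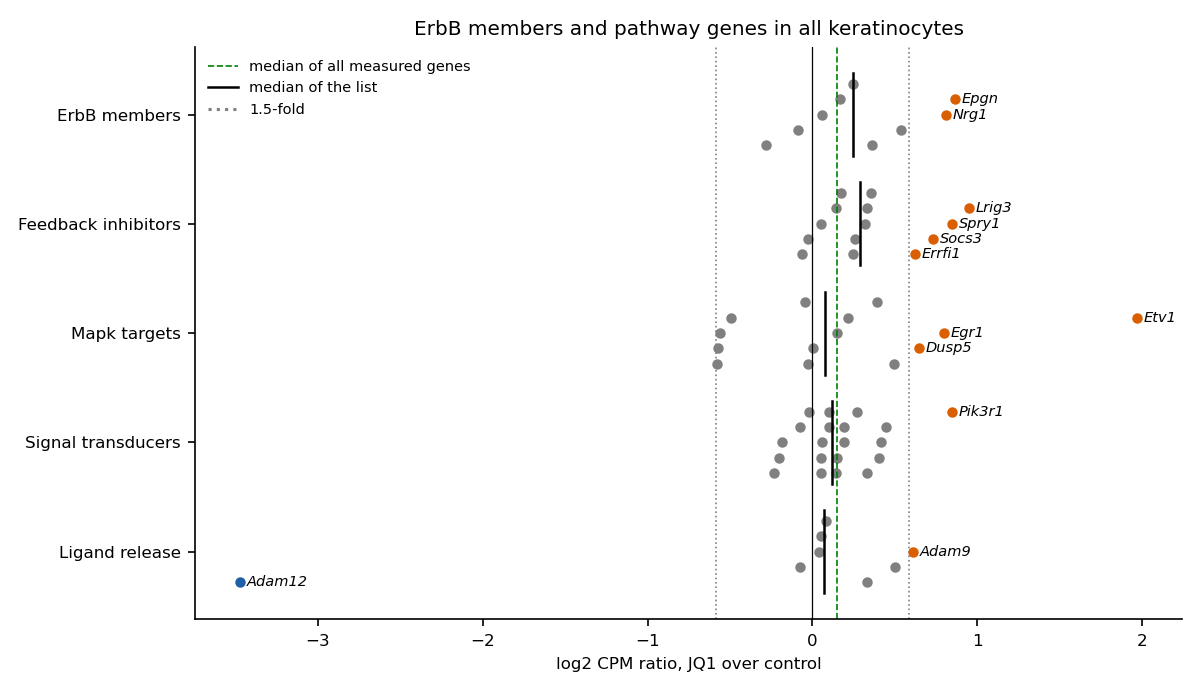
Each point is a measured gene at its log2 CPM ratio, JQ1 over control, in all keratinocytes, in rows by list, with black bars at the list medians, a dashed line at the median of all measured genes (0.15) and dotted lines at 1.5-fold. Orange points are higher and the blue point is lower at 1.5-fold, and Adam12 stands apart on the left.

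Genes with a pattern most like each member were read over 17 points, each the sum of a class with at least 50 cells in 1 library, as Pearson's r of log2(CPM + 1) among 12167 genes with at least 500 UMIs. These points share libraries and depth, so r is a description. Egfr was most like Gas1 (0.94), Tpbg (0.91) and Ntrk2 (0.90), and Erbb3 most like Chdh (0.95), Gpt2 (0.92) and Epb41l4b (0.92). Erbb2 was nearest to P3h4 (0.91), Prkci (0.90) and Emp2 (0.87). Areg was nearest to Tnfrsf18 (0.90), Trbc2 (0.90) and Bcl11b (0.89), all known from T cells. Ereg was nearest to Pi15 (0.87), Wnt5a (0.86) and Col7a1 (0.83), and Hbegf to Chst3 (0.89), Myo18a (0.87) and Dusp6 (0.87). Tgfa was nearest to Itgb4 (0.91), Itga6 (0.90) and Samd12 (0.88), the first 2 being the integrin of the basal keratinocyte's anchor. Btc was nearest to Aspa (0.96), Chl1 (0.90) and Cadm4 (0.89), Epgn to Sprr2h (0.94), Il24 (0.91) and Sprr2k (0.91), and Nrg1 to Nxph4 (0.87), Fetub (0.81) and P2ry1 (0.81). Epgn and Areg, although neighbours on chromosome 5, shared none of these 3 nearest genes.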

How the data were processed

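RNA of single cells was captured with droplets from 1 JQ1 and 1 control library. The deposited values are raw UMI counts per gene and barcode. The submitters' processing notes name the mm10 build and, as tools, Seurat 4.0.0 and Cell Ranger 3.1.0. The sources used here give no annotation release. The lowest barcode total was 500 UMIs in both.

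Kept cells had 200 or more genes and less than 20% of their UMIs from mitochondrial genes. Doublets called by Scrublet in each library were removed (424 in JQ1, 119 in control). The mitochondrial limit took 6.51% of JQ1 and 15.2% of control barcodes. A cell joined the class with its highest marker score if that score was at least 0 and at least 3 markers had a UMI, and keratinocytes joined the subtype gate with the highest score. This gate rule was set after its agreement with clusters was seen and before the libraries were compared. Parts under 50 cells in either library were given levels only. Intervals are exact Poisson for levels, exact conditional for ratios and Clopper-Pearson for shares. A count of 0 allows up to 3 counts. PCR copies were collapsed by UMIs. Only the ratio step was tested on simulated data, drawn as Poisson counts of class sums for keratinocytes and T cells. Such counts hold no clumping of UMIs in single cells. No SD or p-value was computed.

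All 10 members are named, and from each pathway list up to 3 measured genes with the largest change past 1.5-fold in keratinocytes, with Errfi1, Dusp6, Adam17, Erbb4 and Egf whatever their values. Mapk targets near the 1.5-fold limit are named as well. Genes named outside keratinocytes as markers of other RNA (Krt14, Muc5b, Col1a1) come from the marker lists. The members and lists were chosen with earlier results of these data known. Alternatives were another cell filter, size factors, doublets kept, a mean over cells and equal weight for each keratinocyte gate compared, without Stmn2 and Krt42. Further ones were Leiden clusters (2000 genes, 30 components, 15 neighbours, resolution 1.0), a stricter gate, a fold limit of 2 and no filter on low values. Software was scanpy 1.11.5, leidenalg 0.10.2, scikit-learn 1.9.0, scipy 1.17.1, numpy 2.4.6, pandas 2.3.3 and matplotlib 3.10.9 under Python 3.11.15.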

Additional observations from a re-analysis of the deposited data

Results flagged for a closer look

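Ratios of JQ1 over control were looked at among the keratinocyte gates and, separately, among the other gated classes. A keratinocyte gate was not set against another class. In 3 members, ratios past 1.5-fold with intervals that excluded 1 lay on opposite sides of 1 within such a set. With 1 library per group none of these differences was tested. Areg was higher in JQ1 in the simple-keratin gate (ratio 1.82) and lower in the basal gate (0.657) and the Krt16 gate (0.636). Ereg was higher in pericytes (7.44) and lower in neutrophils (0.544). Nrg1 was higher in pericytes (7.18, on 44 JQ1 UMIs and 1 control UMI) and lower in neutrophils (0.366, on 14 and 20 UMIs).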

How the results depend on the processing

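No paired analysis was possible because each group is 1 library. Of 84 single results, 31 were past 1.5-fold, and of their 283 values under an alternative, 8 reversed, 20 came within the limit and 33 moved by over 1.5 times. The cause was not tested. In keratinocytes, 2 members were higher and 0 lower, against 1 higher and 1 lower (Ereg) with a mean over cells and 0 higher with a fold limit of 2. In keratinocyte gates, 12 were higher and 2 lower, against 3 higher with the stricter gate and with a fold limit of 2, and 1 lower with no cell filter, 4 with size factors and 0 with a fold limit of 2. Some of these gate results had no value with the stricter gate, so the 12 and the 3 do not cover the same results. Of the higher ones with a value, Hbegf and Nrg1 in the basal gate came within the limit. In other classes, 6 were higher and 9 lower, against 14 higher and 23 lower with no filter on low values and 4 lower with the stricter gate. In the pathway lists, 9 were higher and 1 lower, against 5 higher with size factors, 4 with the stricter gate, 1 with a fold limit of 2 and 14 with no filter on low values. The lists had 4 lower with the stricter cell filter (500 genes, 10% mitochondrial), 5 with size factors, 3 with a mean over cells, and 2 each with no cell filter, Leiden clusters and the stricter gate.

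The log2 ratios that reversed were Areg in the simple-keratin gate with Leiden clusters (-1.42), Ereg there with a mean over cells (-0.062), Egfr in gland cells with Leiden clusters (-0.63) and Areg in gland cells without the highest cells (0.18). In neutrophils Hbegf reversed with Leiden clusters (0.35) and with the stricter gate (1.81), and Nrg1 with a mean over cells (0.20) and with Leiden clusters (0.22). The highest cell left out was an alternative chosen after seeing the data. Some alternatives gave no value for a class or gate, among them the stricter gate for gland cells. Several ratios in neutrophils, pericytes and gland cells rest on few UMIs.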
